A study of Mus musculus with 32 samples.

Results

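Microglia were sorted with Cd11b, the alpha chain of the integrin CR3, from cortices of TDP-43_Q331K transgenic mice, and the libraries of 10 month old mice (n = 4) were compared with those of 3 month old mice (n = 3). These 7 libraries were chosen by their labelled cell type and age, out of 32 in the series, and no measured value entered the choice. TDP-43 is a nuclear RNA-binding protein that forms cytoplasmic aggregates in amyotrophic lateral sclerosis, and Q331K is a mutation found in patients. Both ages carry the transgene, and mice without it were not analysed here, so ageing and the course of the model cannot be told apart. The transgene's promoter is not given in the labels or notes used here. The labels number the replicates without saying that they are separate animals, so p values measure the spread between these libraries. In bulk RNA of sorted cells, fewer cells of a state and less RNA per cell cannot be told apart.

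Microglia are the resident macrophages of the brain. In the healthy adult they carry a homeostatic programme with receptors such as P2RY12, TMEM119, CX3CR1 and CSF1R. Around plaques, dying neurons and degenerating axons, many take on a state known as disease-associated, in which the lipid receptor TREM2 and its adaptor TYROBP (DAP12) signal and genes of lipid uptake, lysosomes and phagocytosis are raised, classically with loss of homeostatic transcripts.

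Total counts per library ran from 4145129 to 5612071. A level is given as CPM (counts scaled to library depth with TMM factors), a change as a log2 fold change of 10 over 3 months ± SE, and values by library are listed in the order of the replicate numbers. Microglial markers were abundant in every library: Cx3cr1 was at 15074, 20155 and 18791 CPM at 3 months and 24446, 20536, 23993 and 28903 CPM at 10 months. One unnamed Ensembl gene took 17.9% to 27.0% of the counts of a library. After thinning to 4145129 counts, 13502 to 14887 genes were detected at 3 months and 15853 to 16293 at 10 months, with all 4 older libraries above all 3 younger ones. The 3 month replicate 2 stood apart on the first principal component (31.1% of the variance). Endogenous Tardbp, the mouse gene for TDP-43, was at 58.6, 87.8 and 70.5 CPM at 3 months and 72.7, 75.7, 64.3 and 76.5 CPM at 10 months (0.00 ± 0.17, adjusted p = 0.997). Whether reads of the transgene were counted there was not tested.

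Of 12320 genes tested, 239 (1.94%) were called higher at 10 months and 156 (1.27%) lower, in all 395 (3.21%), at an adjusted p under 0.05 in edgeR's quasi-likelihood test with Benjamini-Hochberg adjustment. At least a doubling was seen for 120 of the higher genes, and at least a halving for 39 of the lower ones. The median log2 fold change over all tested genes was 0.0046, and 50.3% of genes lay above 0. Of the 4 smallest p of the higher side, 3 belonged to the disease-associated genes Spp1, Gpnmb and Apoe, and the smallest p of the lower side to Selenos. Calls kept with each of the 7 libraries left out in turn numbered 47. Of the 103 called genes that the naming rule picked, 66 lost the call with at least 1 library left out, 63 of them without 10 month replicate 1, 55 and 53 without replicates 3 and 4 of that age and 48 without 3 month replicate 3. A call described below was lost in at least 1 such fit unless it is said to have been kept. Without 10 month replicate 1, 40 genes were called higher and 11 lower, without replicate 3 of that age 70 and 21, and without its replicate 4 they were 75 and 41. Without 3 month replicate 3 the counts were 131 and 62, and without 3 month replicate 1 they were 231 and 95.

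**Figure D1:**
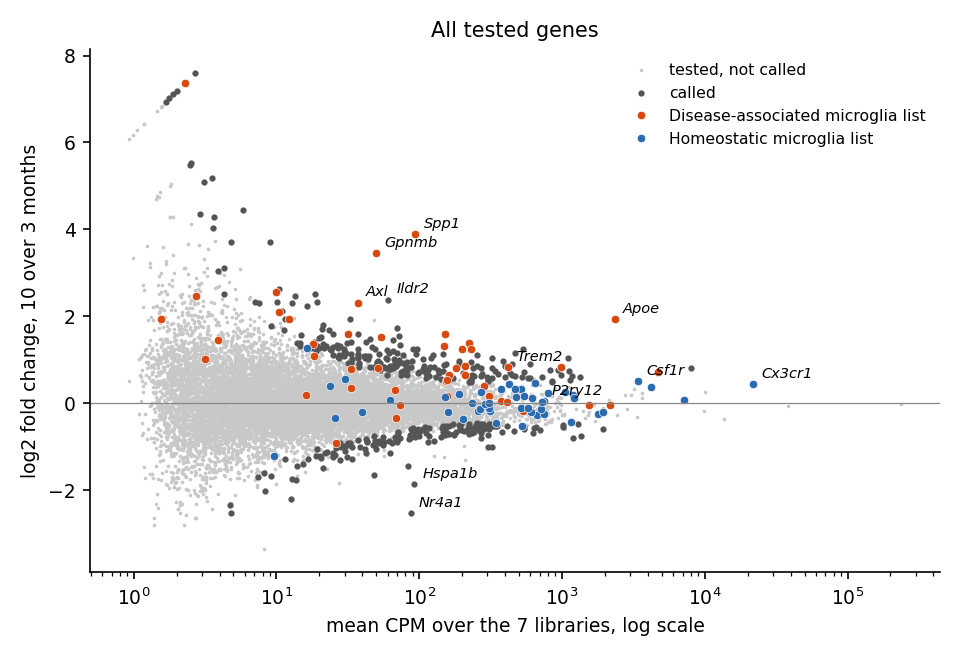
Log2 fold change of 10 over 3 months for each of the 12320 tested genes against its mean CPM over the 7 libraries (log axis). Dark points are called genes, orange points the disease-associated list and blue points the homeostatic list; the orange points lie mostly above 0 with Spp1 at 3.90, the blue points around 0, and the arc at upper left holds genes at 0 in the 3 month libraries, whose fitted values are no bounds.

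The disease-associated list held 50 genes, of which 46 passed the filter on low counts. Among these, 20 rose (43.5%, against 1.94% of all tested genes called higher), none fell, and the median log2 fold change was 0.83. In 24 of the 46 all older libraries lay above all younger ones, a pattern shown by 8.64% of all tested genes. Calls kept with every library left out were those of Spp1, Gpnmb, Apoe, Axl, Ctsb, Tyrobp, Trem2, Fth1 and Clec7a. The other calls of the list each failed in at least 1 such fit: 9 of the 20 remained without 10 month replicate 1, 11 without replicate 4 of that age, and 12 without its replicate 3 or without 3 month replicate 3. Mamdc2 could not be refitted without any of those 3 older libraries.

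Secreted and lipid-carrying products came first. Spp1 (ENSMUSG00000029304, chr5:104435118-104441050) encodes osteopontin, a secreted phosphoglycoprotein that binds integrins and CD44. Its level was 7.07, 12.7 and 12.02 CPM at 3 months and 162, 154, 135 and 176 CPM at 10 months. The older libraries were tightly grouped and far above the younger ones, and Spp1 rose by 3.90 ± 0.22 (adjusted p = 5.74e-08). Apoe (ENSMUSG00000002985, chr7:19696109-19699188), the main lipid carrier of the brain and a ligand of TREM2, was already abundant at 1155, 752 and 772 CPM at 3 months and reached 3807, 2501, 3123 and 4287 CPM at 10 months. No library of one age overlapped the other, and Apoe rose by 1.94 ± 0.19 (adjusted p = 8.76e-05). Fabp5, a fatty acid binding protein, was at 1.63, 4.98 and 1.16 CPM at 3 months and 20.6, 6.401, 13.9 and 20.5 CPM at 10 months. The lowest older library was close to the highest younger one, and its call (2.57 ± 0.56, adjusted p = 0.0226) was lost with any of 5 libraries left out, namely 3 month replicates 1 (2.32) and 3 (2.25) and 10 month replicates 1 (2.40), 3 (2.61) and 4 (2.40). In limma-voom (2.67) and with the replicate number as a block (2.46) it was not called either. Lpl, lipoprotein lipase, was higher in all 4 older libraries (27.7, 132 and 52.9 CPM at 3 months and 218, 171, 199 and 262 CPM at 10 months) but did not pass the test (1.59 ± 0.51, adjusted p = 0.171). Mamdc2 was at 0 in the 3 younger libraries and at 4.53, 1.65, 6.15 and 3.60 CPM in the older ones (adjusted p = 0.0233). Its older mean was 18.9-fold above a floor of 3 counts over the younger group. That floor leaves out the spread between libraries, so the fold is no bound. Without 3 month replicate 3 the adjusted p of Mamdc2 was 0.0519, and neither limma-voom nor the fit with the replicate number as a block called it. Anxa5, annexin A5, which binds phosphatidylserine, was called higher (1.59 ± 0.29, adjusted p = 0.0104) except without 10 month replicate 1 (1.45).

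Among receptors and surface proteins of the list, Gpnmb, Axl, Clec7a and Itgax were called higher, while Cd44 and Cd9, given below, were not. Gpnmb (ENSMUSG00000029816, chr6:49036546-49070929), a transmembrane glycoprotein of endosomes and lysosomes, was at 7.98, 9.05 and 5.08 CPM at 3 months and 100.3, 65.7, 67.7 and 92.0 CPM at 10 months. The lowest older library exceeded the highest younger one several times over, with a rise of 3.46 ± 0.26 (adjusted p = 3.19e-06). Axl (chr7:25757273-25788705), a receptor kinase that recognizes phosphatidylserine on dying cells through GAS6, was at 14.1, 12.7 and 6.93 CPM at 3 months and 73.5, 35.3, 57.6 and 59.1 CPM at 10 months. It rose by 2.31 ± 0.30 (adjusted p = 0.00145), with 10 month replicate 2 the lowest of the older libraries. Its ligand Gas6 did not pass the test (-1.16 ± 0.37, adjusted p = 0.102). The related receptor Mertk was at 1967, 1977 and 2323 CPM at 3 months and 1752, 1898, 1881 and 1695 CPM at 10 months, lower in all older libraries without passing the test (-0.21 ± 0.11, adjusted p = 0.344). Clec7a, the beta-glucan receptor dectin-1, was at 117, 76.0 and 47.6 CPM at 3 months and 214, 161, 189 and 239 CPM at 10 months. The groups did not overlap, and it rose by 1.32 ± 0.23 (adjusted p = 0.0104). Itgax, the CD11c integrin chain, was at 39.2, 11.8 and 26.3 CPM at 3 months and 87.1, 68.4, 56.3 and 88.7 CPM at 10 months. It was called higher (1.53 ± 0.30, adjusted p = 0.0163), but the call ended without 3 month replicate 3 (1.55) and, among the older libraries, without replicate 1 (1.46) or 4 (1.45). Itgam, the Cd11b chain used for the sort, did not pass (0.00 ± 0.12, adjusted p = 0.998).

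Both genes of the TREM2 receptor complex rose. Trem2 (ENSMUSG00000023992, chr17:48346401-48354147) was at 236, 337 and 289.8 CPM at 3 months and 532, 458, 569.6 and 495 CPM at 10 months. Its adaptor Tyrobp (chr7:30413760-30417585) was at 120.4, 132 and 84.6 CPM at 3 months and 289, 198, 248.9 and 331.01 CPM at 10 months. In both genes every older library lay above every younger one, and the rises were 0.84 ± 0.14 (adjusted p = 0.00682) for Trem2 and 1.25 ± 0.18 (adjusted p = 0.00378) for Tyrobp. Of 31 tested genes of TREM2 and CSF1R signalling, 4 rose (12.9%, against 1.94% of all tested genes) and none fell, with a median of 0.10. The other 2 were Csf1r, the receptor for the survival factors CSF1 and IL-34 (0.52 ± 0.12, adjusted p = 0.0257), and Plcg2, the phospholipase downstream of TREM2 (0.85 ± 0.21, adjusted p = 0.0392). Each call was lost in 5 of the 7 fits with a library left out. For Csf1r these were 3 month replicates 1 (0.51) and 3 (0.48) and 10 month replicates 1 (0.51), 3 (0.51) and 4 (0.46). For Plcg2 they were 3 month replicates 1 (0.94) and 2 (0.66) and 10 month replicates 1 (0.91), 3 (0.80) and 4 (0.77). With the replicate number as a block neither Csf1r (0.45) nor Plcg2 (0.79) was called. The kinase Syk (0.09 ± 0.20, adjusted p = 0.868) and the phosphatase Inpp5d (-0.11 ± 0.11, adjusted p = 0.683) did not pass the test.

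Several well-known members of the list did not pass the test. Cst7, a cystatin that inhibits cathepsins, was at 0, 7.24 and 3.70 CPM at 3 months and 22.04, 5.12, 14.7 and 20.2 CPM at 10 months, with 10 month replicate 2 inside the younger range (2.11 ± 0.77, adjusted p = 0.163). Lgals3, encoding galectin-3, had 1.35 ± 0.46 (adjusted p = 0.123), Lyz2 1.24 ± 0.52 (adjusted p = 0.305) and Igf1 1.08 ± 0.32 (adjusted p = 0.0856). B2m (-0.04), Cd9 (-0.05), Timp2 (-0.03) and Ctsl (0.02), also given as disease-associated, lay close to 0 with adjusted p between 0.918 and 0.961. Cd44, a receptor of osteopontin, had the lowest value of the list, -0.91 (adjusted p = 0.186).

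**Figure D2:**
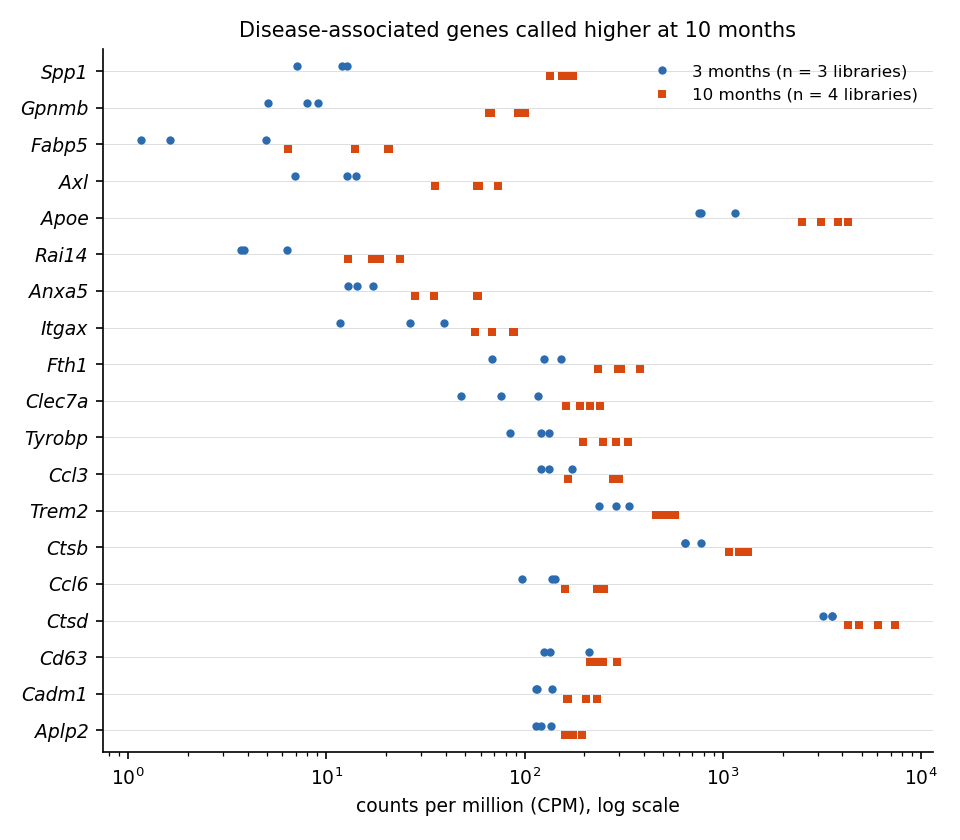
CPM by library (log axis) of disease-associated genes called higher at 10 months, ordered by log2 fold change, with 3 month libraries as circles and 10 month libraries as squares. The ages are separated in every gene drawn except Ccl3; Mamdc2, at 0 at 3 months, cannot be drawn on this axis.

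Homeostatic genes were called about as often as genes in general. All 48 were tested, 1 rose (Csf1r), 1 fell (4.17% called, against 3.21% of all tested genes), and the median was 0.04. All older libraries lay above all younger ones in 7 of the 48 and below them in 8, both larger shares than the 8.64% and 8.12% of all tested genes. P2ry12, a purinergic receptor that guides processes to injury, was at 561, 827 and 796 CPM at 3 months and 641, 768, 719 and 897 CPM at 10 months (0.06 ± 0.15, adjusted p = 0.896). Its ages overlapped in part, with the lowest library a younger and the highest an older one. Tmem119 was at 323, 386 and 345 CPM at 3 months and 490.2, 369, 436 and 617 CPM at 10 months, with 1 older library inside the younger range (0.44 ± 0.15, adjusted p = 0.132). Cx3cr1, the fractalkine receptor, was higher in every older library without passing the test (0.44 ± 0.13, adjusted p = 0.0884). The identity factor Sall1 (0.02, adjusted p = 0.967), Siglech (-0.10, adjusted p = 0.717) and Gpr34 (0.14, adjusted p = 0.73) did not pass either. The gene that fell was Hpgds, the haematopoietic prostaglandin D synthase, at 1311, 1321 and 1422 CPM at 3 months and 971, 1071, 1013 and 943 CPM at 10 months. Its groups did not overlap, with a fall of 0.44 ± 0.10 on the log2 scale (adjusted p = 0.0323), and its call was lost with any library left out except 10 month replicate 2 (-0.39 to -0.45 in the 6 fits). Selplg, a ligand of selectins, had -0.51 ± 0.14 (adjusted p = 0.0657). Of 29 microglial transcription factors, none rose and 1 fell, Nr4a1. Spi1 (PU.1) had 0.31 ± 0.17 (adjusted p = 0.357) and Mef2c -0.26 ± 0.12 (adjusted p = 0.277).

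**Figure D3:**
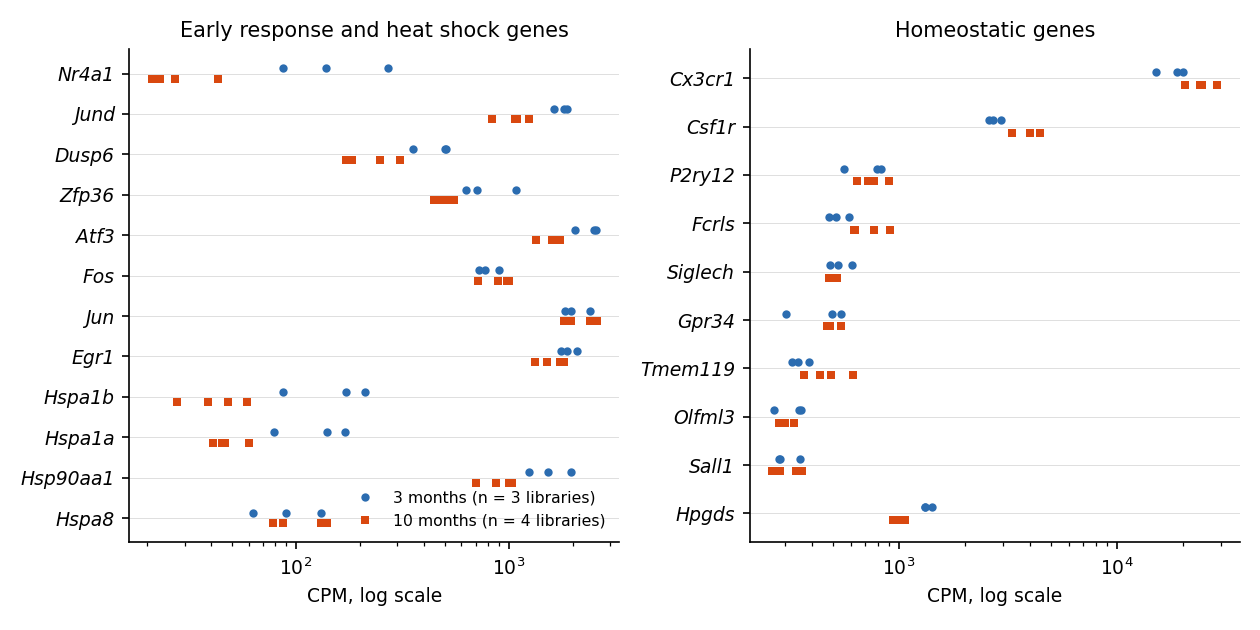
CPM by library (log axes) of early response and heat shock genes (left) and of homeostatic genes (right), 3 month libraries as circles and 10 month libraries as squares. Nr4a1, Hspa1b and Hspa1a are lower in all older libraries while Fos, Jun and Hspa8 overlap; P2ry12 and Sall1 overlap, and Csf1r is higher and Hpgds lower in all older libraries.

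Lysosomal genes rose in part. Of 73 genes listed, 70 were tested, 9 rose (12.9%, against 1.94% of all tested genes called higher) and none fell, and the median was 0.29, with 53 of the 70 above 0. Centring each gene on the median change of genes of like exon length gave a list median of 0.21. Npc2 (chr12:84754562-84773152), which hands cholesterol to NPC1 inside the lysosome, was at 808, 626 and 629 CPM at 3 months and 1584, 1112, 1393 and 1594 CPM at 10 months. Ctsb, a cysteine protease, was at 643, 771 and 645 CPM at 3 months and 1276, 1067, 1202 and 1339 CPM at 10 months, and Lamp1, a membrane glycoprotein, at 559, 636 and 559 CPM at 3 months and 987, 825, 947 and 1238 CPM at 10 months. All 3 genes were higher in each older library than in any younger one and kept their calls with every library left out, with rises of 1.05 ± 0.14 (adjusted p = 0.00221), 0.83 ± 0.12 (adjusted p = 0.0033) and 0.77 ± 0.14 (adjusted p = 0.00896). The other 6 were Ctss, Ctsd, Ctsh, Man2b1, Dpp7 and Cd63, with log2 changes from 0.50 (Man2b1) to 1.04 (Dpp7). Of the 9 calls, 3 remained without 10 month replicate 1, 3 without 3 month replicate 3, 4 without 10 month replicate 4 and 5 without 10 month replicate 3. Limma-voom did not call Ctsd (0.69). Npc1 (0.05, adjusted p = 0.91) and progranulin, Grn (0.34, adjusted p = 0.172), did not pass the test, nor did the regulators Tfeb (0.47, adjusted p = 0.234), Tfe3 (-0.34, adjusted p = 0.163) and Mitf (0.19, adjusted p = 0.704).

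Promoter windows (250 bases before to 50 after the annotated start, from RefSeq on GRCm38.p6) were searched on both strands for 3 motifs. These were TCACNTG, a loose form of the E-box known for MITF, TFEB and TFE3, GAGGAAGT, a core known for PU.1, and TGANTCA. The first allows any base at N, so its matches include looser ones such as TCACTTG. The last is a loose form of the AP-1 site that allows any base at its centre, so its matches include looser ones such as TGAATCA. These sets were chosen with the expression results known. TCACNTG was in 27 of the 58 lysosomal genes with a window (46.6%), in 17.9% of tested genes and in 16.6% of all 32851 windows. Of the 38 disease-associated genes with a window, 6 held TCACNTG (15.8%), 1 GAGGAAGT (2.6%) and 7 TGANTCA (18.4%). Of genes called higher with a window, 19.0% held TCACNTG (31 of 163), 4.9% GAGGAAGT and 8.0% TGANTCA. Of genes called lower, 13.3%, 6.7% and 3.8% held them, and of tested genes 17.9%, 4.1% and 6.0%. Over all windows the shares of GAGGAAGT and TGANTCA were 3.2% and 7.8%. A match describes letters in the window and is no evidence of binding. The windows below belong to genes whose calls were kept with every library left out, and capitals mark any of the 3 motifs. Spp1 (chr5:104434861-104435160, plus strand, the earlier of 2 windows) holds GAGGAAGT 113 bases before the start. Gpnmb (chr6:49036268-49036567, plus strand) holds TCACTTG, a looser match of the E-box form, on the minus strand, read here as CAAGTGA, overlapping a TGACTCA. In Lamp1 (chr8:13158911-13159210, plus strand) the E-box form occurs 4 times before the start. Trem2 (chr17:48346151-48346450, plus strand) holds TGAATCA 9 bases before the start.
Spp1: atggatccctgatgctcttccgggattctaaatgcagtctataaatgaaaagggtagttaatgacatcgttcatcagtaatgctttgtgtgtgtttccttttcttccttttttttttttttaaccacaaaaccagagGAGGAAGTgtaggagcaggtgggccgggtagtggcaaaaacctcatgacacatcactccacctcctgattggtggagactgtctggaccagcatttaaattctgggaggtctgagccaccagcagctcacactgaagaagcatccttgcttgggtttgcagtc
Gpnmb: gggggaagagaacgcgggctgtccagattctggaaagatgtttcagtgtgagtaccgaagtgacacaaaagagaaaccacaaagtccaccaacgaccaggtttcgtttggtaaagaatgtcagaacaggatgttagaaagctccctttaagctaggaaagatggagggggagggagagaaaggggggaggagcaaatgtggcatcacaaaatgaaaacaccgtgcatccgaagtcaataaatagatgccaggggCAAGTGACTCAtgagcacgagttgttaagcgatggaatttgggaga
Lamp1: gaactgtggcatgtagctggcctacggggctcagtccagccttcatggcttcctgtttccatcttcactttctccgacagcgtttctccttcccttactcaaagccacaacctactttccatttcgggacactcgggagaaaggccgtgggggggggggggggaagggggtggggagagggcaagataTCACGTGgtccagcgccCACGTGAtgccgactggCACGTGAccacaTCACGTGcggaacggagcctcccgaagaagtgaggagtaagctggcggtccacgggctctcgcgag
Trem2: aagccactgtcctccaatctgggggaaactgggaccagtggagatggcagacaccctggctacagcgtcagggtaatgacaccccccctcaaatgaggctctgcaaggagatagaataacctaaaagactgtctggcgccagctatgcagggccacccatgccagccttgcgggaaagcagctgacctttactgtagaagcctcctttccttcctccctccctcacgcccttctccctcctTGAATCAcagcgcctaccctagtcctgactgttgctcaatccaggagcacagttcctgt

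Lipid, iron and clearance genes rose in smaller numbers, given here against the 1.94% of all tested genes called higher. Of 41 lipid handling genes, 4 rose (9.76%), namely Apoe, Npc2, Nceh1 and Fabp5, none fell, and the median was 0.26. Nceh1, a neutral cholesterol ester hydrolase, was at 11.1, 8.82 and 13.9 CPM at 3 months and 25.1, 25.8, 32.2 and 32.2 CPM at 10 months. The groups did not overlap (1.36 ± 0.27, adjusted p = 0.0168), but the call was lost without 10 month replicate 1 (1.42), 3 (1.30) or 4 (1.30). The cholesterol exporters Abca1 (0.01, adjusted p = 0.984) and Abcg1 (-0.21, adjusted p = 0.701) did not pass. None of 22 cholesterol synthesis genes was called by edgeR in either direction (median 0.40). Fth1, the ferritin heavy chain that stores iron, was at 125, 153 and 68.6 CPM at 3 months and 307, 234, 294 and 379 CPM at 10 months. All older libraries exceeded all younger ones (1.39 ± 0.23, adjusted p = 0.00806), and of 33 antioxidant and iron genes 5 rose (15.2%) and none fell, with Sod1 and Prdx1 among them. Complement genes gave 3 rises of 18 tested (16.7%) and a median of 0.37: Itgax, Itgb2 and C1qb, a chain of the initiating factor C1q (0.64 ± 0.14, adjusted p = 0.0235). The 3 complement calls were all lost without 10 month replicate 1 or 4 or 3 month replicate 3, with adjusted p between 0.0574 and 0.152. C3 (0.44, adjusted p = 0.774) and C4b (1.08, adjusted p = 0.296) did not pass. Among 39 Fc receptor and phagocytosis genes, 4 rose (10.3%), Axl, Clec7a, Fcer1g and Fcgr3, and none fell (median 0.09).

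**Figure D4:**
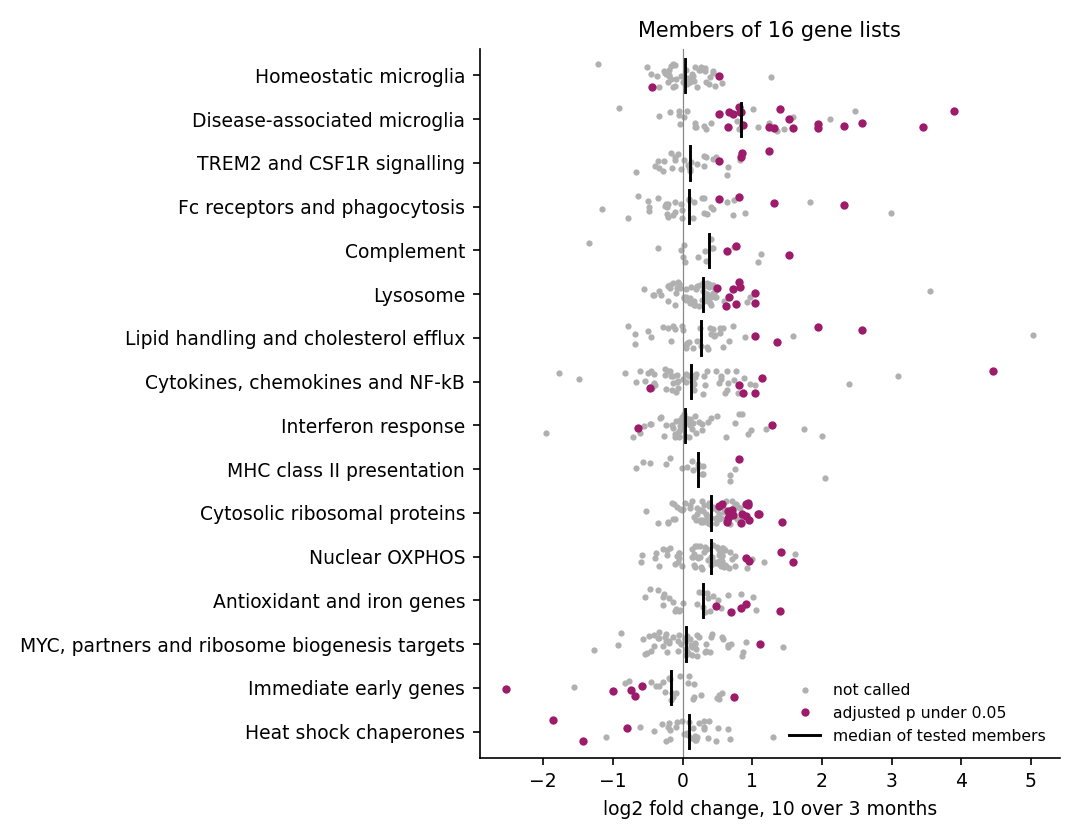
Log2 fold change of 10 over 3 months of every tested member of selected gene lists, with called members in colour and the list median as a vertical bar (Mamdc2 is not drawn but counts in its median). The disease-associated list has the highest median of those drawn, 0.83, and the early response list the lowest, -0.17.

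Inflammatory lists differed in their share of calls, which was 3.21% over all tested genes. Of 57 interferon response genes, 1 rose (Lgals3bp) and 1 fell (Irf1), which is 3.51%, with a median of 0.04. Of 19 genes of MHC class II presentation only Ctss, a cathepsin that trims the invariant chain, was called (5.26%), and H2-Aa (0.23, adjusted p = 0.715) and Cd74 (0.15, adjusted p = 0.851) did not pass. The cytokine, chemokine and NF-kB list had 5 rises and 1 fall among 65 genes (9.23%, median 0.12). The chemokine Cxcl14 was nearly absent at 3 months, at 0.363, 0 and 0.924 CPM, and was at 7.62, 6.95, 12.1 and 12.5 CPM at 10 months. Its ages did not overlap (4.46 ± 0.75, adjusted p = 0.00815), although more genes of any kind were detected in the older libraries, the part of which in this result was not tested. The call was kept in each fit with 1 library removed but not in limma-voom (4.68). Ccl6, Ccl3 and Cxcl16, further chemokines, and Tnip1, an inhibitor of NF-kB, were called with log2 changes from 0.80 (Ccl6) to 1.14 (Cxcl16), and none of these calls survived leaving out 10 month replicate 1 (adjusted p 0.0561 to 0.0978). The cytokines Il1b (0.14, adjusted p = 0.849) and Tnf (0.64, adjusted p = 0.0738) did not pass. Il10ra, a receptor chain for interleukin 10, fell by 0.47 ± 0.12 (adjusted p = 0.0484), a call lost in 6 of the 7 fits with a library left out, all except that without 3 month replicate 2 (-0.41 to -0.51). That call was also lost with no filter, with the filter at 1 CPM and with the replicate number as a block (-0.44).

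The series title names MYC, a transcription factor of growth genes. Myc was at 10.2, 2.71 and 6.93 CPM at 3 months and 10.3, 13.4, 3.44 and 1.54 CPM at 10 months (0.10 ± 0.65, adjusted p = 0.962). Both ages spanned similar low levels, and its partner Max had -0.48 ± 0.23 (adjusted p = 0.305); Mycn was too low to be tested. Of 59 MYC partners and ribosome biogenesis targets, 1 rose (1.69%), none fell, and the median was 0.05. The one that rose was Prmt1, an arginine methyltransferase, at 41.7, 43.9 and 53.1 CPM at 3 months and 119, 87.1, 83.1 and 111 CPM at 10 months. Its older libraries were all higher (1.11 ± 0.18, adjusted p = 0.00688), and it stayed called in each fit with 1 library removed. Of 24 cell division genes and 24 senescence and p53 genes none was called by edgeR, with Cdkn1a, the cell cycle inhibitor p21, at 0.72 ± 0.26 (adjusted p = 0.141).

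Ribosomal protein genes and nuclear genes of oxidative phosphorylation lay mostly above 0. Of 79 ribosomal protein genes tested, 17 rose (21.5%, against 1.94% of all tested genes), none fell, 68 lay above 0, where 50.3% of all tested genes did, and the median was 0.41. Rpl6 was at 153, 131 and 167 CPM at 3 months and 331.18, 233, 287 and 318 CPM at 10 months and Rps20 at 489, 363 and 332 CPM at 3 months and 815, 586, 811 and 761 CPM at 10 months. Both had all older libraries above all younger ones (0.96 ± 0.15, adjusted p = 0.00431, and 0.91 ± 0.15, adjusted p = 0.00802) and were the only 2 of the 17 whose calls were kept with every library left out. Of the 17 calls, 2 remained without 10 month replicate 3, 3 without replicate 1 of that age and 4 without its replicate 4 or without 3 month replicate 3. Of 71 nuclear oxidative phosphorylation genes, 4 rose (5.63%, against 1.94%), namely Ndufa5, Ndufb9, Atp5k and Cox6c, and none fell (median 0.41). All 4 calls were lost without 10 month replicate 1, with adjusted p between 0.0506 and 0.0994. Of the 9 tested mitochondrial transcripts of this list none was called (median -0.08). Genes of both nuclear groups are short: the median exon length was 1781 bases for ribosomal protein genes and 1801 for the oxidative phosphorylation list, against 4358 over all tested genes. Split by exon length into 3 groups of equal size, tested genes had a median log2 change of 0.12 in the shortest group and -0.07 in the longest, and with changes centred by length the list medians were 0.28 and 0.23. The part of length in these results was not tested. Many ribosomal protein genes have near-identical processed pseudogenes, so the assignment of their reads is uncertain. Of 297 tested genes annotated as a pseudogene of any kind, 26 were called higher and 1 lower, where 1.94% and 1.27% of all tested genes were. Of the 26, 9 were ribosomal protein pseudogenes by name, and Clec7a, annotated as a polymorphic pseudogene, was also among them.

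On the lower side, Nr4a1 (ENSMUSG00000023034, chr15:101254269-101274795), an orphan nuclear receptor induced within minutes of stimulation, was at 271, 86.6 and 138 CPM at 3 months and 23.1, 27.1, 21.0 and 43.0 CPM at 10 months. Each older library was below the lowest younger one, and 3 month replicate 1 was the highest of all. Nr4a1 fell by 2.53 ± 0.35 on the log2 scale (adjusted p = 0.00706) and by 1.97 without that library, where the call was kept. Of 31 immediate early genes, 5 fell and 1 rose (19.4% called, against 3.21% of all tested genes, of which 1.27% were called lower), and the median was -0.17. The others that fell were Jund, an AP-1 subunit (-0.74 ± 0.13, adjusted p = 0.00896), Dusp6, a phosphatase of ERK (-0.997 ± 0.19, adjusted p = 0.0117), Zfp36, which destabilizes cytokine mRNAs (-0.69 ± 0.16, adjusted p = 0.0266), and Atf3, a stress-induced factor (-0.58 ± 0.12, adjusted p = 0.0188). Klf6 rose (0.73 ± 0.16, adjusted p = 0.0235). Only Nr4a1 and Jund kept their calls with each library left out: 3 of the 5 falls remained without 3 month replicate 1, or without 10 month replicate 3 or 4, and 2 without 10 month replicate 1. The list median turned to 0.0377 without 3 month replicate 1, the library in which neutrophil markers summed to 2366 CPM and monocyte markers to 1009 CPM, each the highest of the 7. Their part in the result was tested only by leaving that library out. Fos (0.16, adjusted p = 0.587), Jun (0.08, adjusted p = 0.817) and Egr1 (-0.26, adjusted p = 0.312), the classical members of the class, did not pass.

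Of 36 chaperone genes tested 3 fell (8.33%, against 1.27% of all tested genes called lower), and all kept their calls with every library left out. Hspa1b (chr17:34956436-34959238) was at 172, 212 and 86.9 CPM at 3 months and 38.7, 58.9, 27.5 and 47.8 CPM at 10 months and Hspa1a (chr17:34969190-34972156) at 140.3, 171 and 78.6 CPM at 3 months and 60.3, 44.8, 40.9 and 46.4 CPM at 10 months. These neighbours encode the inducible HSP70 with nearly the same coding sequence, so the split of reads between them is uncertain. In both, older libraries lay below all younger ones, with falls of 1.86 ± 0.28 (adjusted p = 0.00431) and 1.43 ± 0.22 (adjusted p = 0.00431). Hsp90aa1, the inducible HSP90, was at 1523, 1962 and 1244 CPM at 3 months and 1039, 875, 1008 and 704 CPM at 10 months. It fell by 0.80 ± 0.16 (adjusted p = 0.0143), while the constitutive forms Hsp90ab1 (0.19 ± 0.14, adjusted p = 0.563) and Hspa8 (0.20 ± 0.24, adjusted p = 0.739) and the co-chaperone Dnajb1 (0.02 ± 0.25, adjusted p = 0.979) did not pass. None of the chaperones rose and their median was 0.09.

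Further genes kept their calls, most of them in no list. Ildr2 (ENSMUSG00000040612, chr1:166254139-166316823), an immunoglobulin-like receptor, was at 15.2, 15.8 and 21.95 CPM at 3 months and 88.8, 83.6, 106 and 90.2 CPM at 10 months. Its lowest older library was several times its highest younger one, and it rose by 2.39 ± 0.20 (adjusted p = 9.94e-06), the third smallest p of the table. St8sia6, a sialyltransferase that makes ligands for Siglec receptors, was at 8.34, 17.9 and 11.3 CPM at 3 months and 49.6, 37.5, 50.7 and 53.8 CPM at 10 months (1.94 ± 0.27, adjusted p = 0.00275), and Hcar2, the receptor for niacin and beta-hydroxybutyrate, at 8.88, 2.04 and 3.70 CPM at 3 months and 31.9, 30.5, 16.8 and 35.6 CPM at 10 months (2.52 ± 0.43, adjusted p = 0.00896). Neither had overlapping ages. Edf1, a factor that binds colliding ribosomes, was at 32.3, 21.0 and 36.0 CPM at 3 months and 122, 54.0, 111 and 113 CPM at 10 months (1.74 ± 0.27, adjusted p = 0.00431), with 10 month replicate 2 well below the other older libraries. Psat1, an enzyme of serine synthesis, rose by 1.16 ± 0.18 (adjusted p = 0.00431). Selenos (chr7:66079649-66089405), a selenoprotein of endoplasmic reticulum protein disposal, was at 429, 421 and 423 CPM at 3 months and 197, 228, 195 and 220.2 CPM at 10 months. The younger libraries were nearly identical and all older ones were about a factor of 2 lower, a fall of 1.01 ± 0.11 (adjusted p = 0.000292). Rcc2 (-1.14 ± 0.20, adjusted p = 0.00896), Purb, a single-stranded nucleic acid binding protein (-0.70 ± 0.12, adjusted p = 0.00896), Trmt1l, a tRNA-modifying enzyme (-0.88 ± 0.16, adjusted p = 0.0112), and Hk2, a hexokinase that starts glycolysis (-0.64 ± 0.12, adjusted p = 0.0105), fell as well. All 10 called genes of this group held with each library left out.

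Other cell types left transcripts in the sorts, given here as the summed CPM of each marker list. Neutrophil markers summed to 2366 in 3 month replicate 1, against 473 to 784 in the other 3 month libraries and 499 to 818 at 10 months, and monocyte markers to 1009 against 308 to 339 and 243 to 314. All 13 tested neutrophil markers lay below 0, with Csf3r called lower (-0.89 ± 0.22, adjusted p = 0.0401) but not without 3 month replicate 1 (-0.54) or 3 (-0.97) or 10 month replicate 1 (-0.82), 3 (-0.90) or 4 (-0.84), and 14 of 17 monocyte markers did, Nr4a1 being on that list too. Their part in the lower calls was not tested beyond the fits without that library. Border-associated macrophages lie at the vessels and meninges and also express Cd11b. Their 16 markers summed to 359 to 565 at 3 months and 482 to 605 at 10 months, and of 14 tested 13 lay above 0 (median 0.67) and 1 rose, Cd209f, a C-type lectin at 2.90, 1.81 and 3.00 CPM at 3 months and 16.1, 8.41, 21.9 and 18.3 CPM at 10 months (2.64 ± 0.45, adjusted p = 0.00896), kept in each fit with 1 library removed but not called by limma-voom (2.54). Mrc1, a defining marker of these cells, was the member below 0 and did not pass (-0.21 ± 0.20, adjusted p = 0.655). Oligodendrocyte markers summed to 1452 to 2286 at 3 months and 2027 to 2705 at 10 months, with Trf the largest member in each library. Enpp2, also a choroid plexus marker, was at 78.0, 591 and 294 CPM at 3 months and 219, 163, 439 and 93.5 at 10 months. Of 20 tested oligodendrocyte markers, 14 lay above 0 and 6 below (median 0.57). One rose, Trf, encoding transferrin, at 686, 707 and 617 CPM at 3 months and 1125, 1112, 1008 and 1319.6 CPM at 10 months (0.77 ± 0.12, adjusted p = 0.00431, kept with each library removed), while the myelin gene Mbp (0.48, adjusted p = 0.276) did not pass. Astrocyte markers summed to 1095 to 1460 and 1369 to 1729, with S100b (0.98, adjusted p = 0.0364) and Slc1a2 (1.07, adjusted p = 0.0298) called higher, and Gfap too low to be tested. Glul alone made up most of each astrocyte sum, at 730 to 1062 CPM at 3 months and 839 to 1118 CPM at 10 months. Of 17 tested astrocyte markers, 13 lay above 0 and 4 below (median 0.63). In 5 of them all older libraries exceeded all younger ones, where 8.64% of all tested genes did so, and in 0 the reverse held. Neuron markers summed to 491 to 524 and 579 to 655, oligodendrocyte precursor markers to 22.3 to 31.3 and 39.3 to 51.1, and endothelial markers to 170 to 207 and 223 to 272, higher in every older library. Choroid plexus markers varied most, from 198 to 3428, and did not follow age. The part of these cells in the rise of disease-associated genes was not tested.

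**Figure D5:**
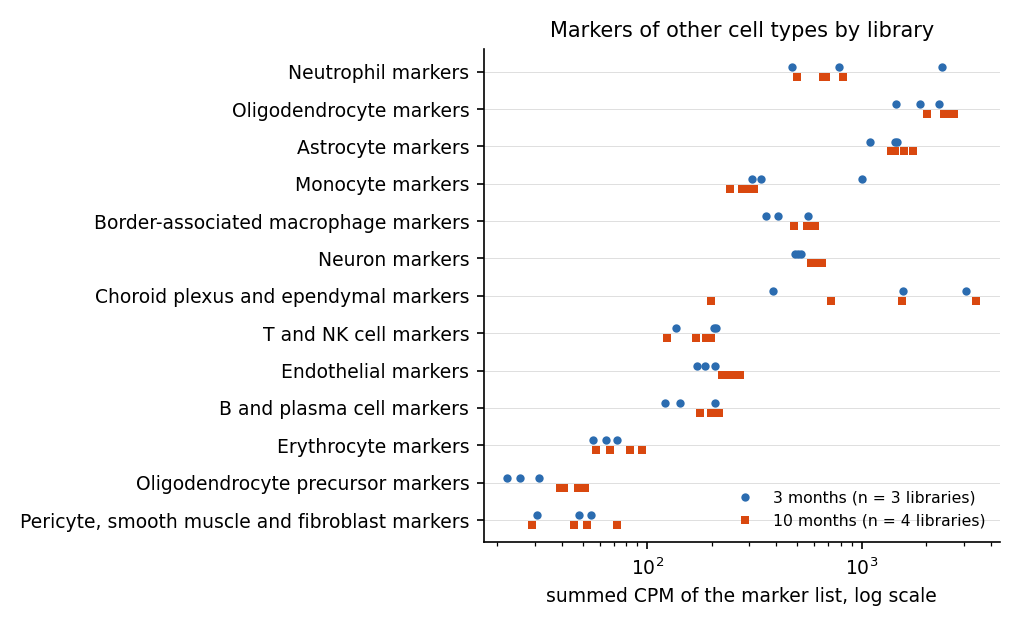
Summed CPM of marker lists for other cell types by library (log axis), with 3 month libraries as circles and 10 month libraries as squares. Neutrophil and monocyte markers are highest in 1 younger library (2366 and 1009 CPM), neuron and oligodendrocyte precursor markers are higher in all older libraries, and choroid plexus markers range from 198 to 3428 CPM across both ages.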

How the data were processed

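RNA of Cd11b-sorted cortical cells was made into libraries with a 3′ mRNA kit (QuantSeq), per the labels' protocols, so reads lie near transcript ends. The deposited table holds raw counts per gene made by the authors, 1 column per library, for 53700 Ensembl identifiers, of which 52093 matched a symbol. The submitters' processing notes list, without saying which step or table each served, the aligner STAR 2.7.7a, the counter featureCounts 2.0.1, UMI-tools 1.0.1, fastp and DESeq2, and as genome builds mm10, GRCm38.p6 and GRCm39. Sources used here do not say which build applies to this table or whether strand was counted. Gene positions, lengths and types come from GENCODE vM21 on GRCm38 and apply to that annotation.

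Counts were fitted in edgeR 4.0.16 (R 4.3.3) with TMM scaling, filterByExpr at a minimum count of 10, 1 mean per age and a robust two-sided quasi-likelihood F test. Calls were made at 0.05 after Benjamini-Hochberg adjustment over all tested genes. Standard errors were derived from the test, as the absolute log2 fold change over the square root of the F statistic. Other errors are SD over libraries. The script was tested on simulated data. Library totals of 4145129 to 5612071 limit precision for genes of a few CPM.

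The lists (42 with 1299 genes) and the members were chosen with earlier results of these data known, and are described by counts and medians without a test. Named genes were up to 15 each way by size among called genes whose higher age averaged 5 CPM or more, whose ages did not overlap and whose call was kept with every library left out, excluding clone, predicted and RIKEN names; the called members of each list, or its 3 most abundant; 24 fixed genes; and the 10 smallest p. Not every gene so picked is described, and list members that did not pass were also named after their values were seen, to show both outcomes. Alternatives were RLE scaling, no filter, 1 CPM in 3 libraries, DESeq2 1.42.0, limma-voom (limma 3.58.1), a replicate block, each library left out and, added after seeing the data, removal of the most abundant gene.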

Additional observations from a re-analysis of the deposited data

Results flagged for a closer look

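Among 148 named genes, 8 had a 10 month library whose distance to the nearest other library was, relative to the range of the 4 older libraries, above Dixon's 95% critical value. Chance flags about 1 in 20 such groups. Low in 10 month replicate 2 were Edf1 at 53.95 CPM against 110.6 to 121.7, Ccl3 at 164.4 against 278.8 to 297.8, and Rpl26 at 100.4 against 157.0 to 167.1 CPM. In replicate 4 of that age, S100b was at 170.04 CPM against 87.1 to 99.3 and mt-Nd4 at 3998.3 against 2636 to 2742 CPM. In its replicate 1, Igkc, an immunoglobulin chain of B cells, was at 53.1 CPM against 15.2 to 18.5, Trmt1l at 49.43 against 43.3 to 44.0, and Hmgb1 at 66.1 against 82.5 to 85.8 CPM. The sources of these values were not tested.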

How the results depend on the processing

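For the counts of genes called higher and lower (239 and 156), no filter on low counts gave 446 and 284, DESeq2 403 and 345, and the replicate block 136 and 75; RLE scaling, the filter at 1 CPM, limma-voom and removal of the most abundant gene stayed within 1.5 times. The replicate numbers do not pair the libraries: same-numbered libraries had deviations correlated at -0.0394 to 0.0235. No filter moved the median of all genes to 0.13. With each library left out, 40 to 263 genes were called higher and 11 to 163 lower. The 20 disease-associated rises became 9 to 21, the 9 lysosomal 3 to 8, the 17 ribosomal protein 2 to 24, and the 5 early response falls 2 to 5; the 3 chaperone falls were called in all 14 alternatives. Ribosomal protein rises numbered 26 without a filter and 10 under the replicate block. The median of disease-associated genes ran from 0.78 to 0.97 with each library left out and that of ribosomal proteins from 0.31 to 0.56. The early response median ran from -0.2317 and reversed to 0.0377 without 3 month replicate 1, and the chaperone median to -0.0106 without 3 month replicate 3 and moved to 0.30 without 3 month replicate 2. The cause was not tested. Of 2065 alternative values for 148 named genes, 322 lost the call, 22 gained one, and 1680 kept direction and side of the threshold. The other 41, from 16 genes not called in either fit, changed sign, among them Myc (-0.39 without 10 month replicate 2) and P2ry12 (-0.10 without 3 month replicate 1); 0 values of called genes did. At these depths changes in genes of a few CPM are poorly resolved, and fits with 1 library fewer test other gene sets and hold fewer samples.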

Other observations

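Small and non-coding RNAs also appeared among the calls. The small nucleolar RNA Snord89 was at 309, 277 and 304 CPM at 3 months and 742, 502, 891 and 699 CPM at 10 months (1.26 ± 0.16, adjusted p = 0.00141 in edgeR's quasi-likelihood test), and mt-Tq, the mitochondrial glutamine tRNA, at 42.4, 26.0 and 28.4 CPM at 3 months and 92.5, 88.3, 108 and 69.5 CPM at 10 months (1.47 ± 0.21, adjusted p = 0.00339). Both were higher in every older library and kept their calls with each library removed. Mature forms of these RNAs lack the poly(A) tails that the kit primes, and which RNA gave the reads was not tested. Of 573 genes annotated as to be experimentally tested (TEC), 23 were called lower and 2 higher, where 1.27% and 1.94% of all tested genes were. Pianp and 5 other called genes were at 0 in all 3 younger libraries. Pianp, at 4.69 CPM at 10 months, was 22.3-fold above a floor of 3 counts over the younger group. That floor leaves out the spread between libraries, so the fold is no bound.

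Sod1, the superoxide dismutase linked to amyotrophic lateral sclerosis, was at 115, 95.0 and 96.6 CPM at 3 months and 207, 138, 184 and 235 CPM at 10 months. Every older library exceeded every younger one (0.90 ± 0.17, adjusted p = 0.012 in edgeR's quasi-likelihood test), and the call was lost without 10 month replicate 1 (0.86).

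The remaining lists are set against the 3.21% of all tested genes called. Of 39 autophagy and mitophagy genes 1 rose (2.56%), Gabarap (0.76 ± 0.18, adjusted p = 0.0293), and of 28 TGF-beta signalling genes 1 rose (3.57%), Id2, a transcriptional inhibitor (0.98 ± 0.18, adjusted p = 0.0104), lost without 10 month replicate 1 (0.87). Of 33 glycolysis and hypoxia genes, 2 rose (Aldoa and Gpi1) and Hk2 fell (9.09%). Of 31 integrated stress response genes Psat1 rose and Atf3 fell (6.45%). None of 20 clock genes was called by edgeR.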
